A study of Mus musculus with 4 samples.

Results

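The interferon-induced GTPases described here are 6 mouse genes, Gbp2, Gbp3, Gbp7, Igtp, Irgm1 and Irgm2, out of 20094 genes in the deposited gene table. They were taken as a list of guanylate-binding and immunity-related GTPase genes that earlier results on these same cells had put forward, chiefly from rods, so their levels in rods are given as a description with no test. All 6 were found. A further 26 genes of the same families were searched for, and 15 of them were found.

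Single-cell transcripts were counted in retinae of Abca4-/-Rdh8-/- mice on a C57BL/6J background, aged 6 weeks. These mice lack a transporter and a retinol dehydrogenase that take part in clearing retinal after light. The 4 groups had 1 library each, pooled from 4 retinae of 2 mice, so no value has a replicate and no difference between groups can be tested. The unbleached vehicle group received DMSO and no bright light. The bleached vehicle group received DMSO and white light of 10000 lux for 30 min, after 24 h in the dark and pupil dilation with 1% tropicamide. The rolipram and BC11-38 groups were bleached in the same way, with 2 mg/kg of the drug in DMSO injected 30 min before light. Rolipram inhibits phosphodiesterase 4 and BC11-38 inhibits phosphodiesterase 11. All 3 bleached groups are labelled as taken 1 day after light. The comparisons ask which transcripts differ after bleaching and where they stand after each inhibitor.

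Interferons bind receptors whose Janus kinases phosphorylate STAT proteins, and the STATs, with interferon regulatory factors, switch on genes that carry an interferon-stimulated response element (ISRE) or a gamma-activated site near their start. Guanylate-binding proteins are large GTPases that assemble on the membranes of vacuoles holding microbes. Immunity-related GTPases fall into effectors, which act on such membranes, and the regulators Irgm1, Irgm2 and Igtp (also called Irgm3), which protect the cell's own membranes from the effectors. In tissues at rest both families are usually low, and interferon raises them in most cell types.

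The promoters are shown first because the members share a sequence known from interferon-induced genes. Sequences are from RefSeq on GRCm38.p6, 5′ to 3′ in the direction of the gene, and capitals mark the ISRE core GAAANNGAAA, searched on both strands (the other strand reads TTTCNNTTTC). A stretch of 80 bases is given for 5 genes and one of 30 bases for Irgm1.
Gbp2, chr3:142620552-142620631, plus strand: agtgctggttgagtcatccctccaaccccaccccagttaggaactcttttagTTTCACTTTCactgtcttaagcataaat
Gbp3, chr3:142559964-142560043, plus strand: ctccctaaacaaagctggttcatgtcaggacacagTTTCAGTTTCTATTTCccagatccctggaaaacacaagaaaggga
Gbp7, chr3:142530256-142530335, plus strand: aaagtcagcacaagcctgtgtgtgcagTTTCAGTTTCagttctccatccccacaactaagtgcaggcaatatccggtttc
Igtp, chr11:58199476-58199555, plus strand: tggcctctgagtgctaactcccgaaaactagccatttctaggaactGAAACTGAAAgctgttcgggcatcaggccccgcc
Irgm1, chr11:48871428-48871457, minus strand: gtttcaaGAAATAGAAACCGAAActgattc
Irgm2, chr11:58214897-58214976, plus strand: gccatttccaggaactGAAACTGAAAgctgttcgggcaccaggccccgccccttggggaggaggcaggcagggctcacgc

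All 6 members had the core within 250 bases before a listed start, and so did 978 of 32851 promoters in the table, or 2.98%. Gbp3 and Irgm1 each had 2 overlapping cores, and Gbp3 has a second listed promoter without one. The first base of the core lay 59 bases before the start of Gbp2, 53 before that of Gbp7, 34 before that of Igtp and 64 before that of Irgm2. In Gbp3 the cores began 45 and 39 bases before the start, and in Irgm1 30 and 24. The gamma-activated site TTCNNNGAA, which reads the same on both strands, was found in 7.02% of promoters, with 2 matches in Gbp7, 1 in Igtp and 1 in Irgm2. Over 100 bases around the core, Igtp and Irgm2 were identical at 97. The other pairs of members were identical at 19 to 37 of 100 bases. These matches describe the sequence only.

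The 6 genes lie in clusters on a pair of chromosomes (mm10, GENCODE M21). Gbp7, Gbp3 and Gbp2 stand on the plus strand of chromosome 3, at 142530342 to 142550149, 142560026 to 142573209 and 142620602 to 142638008. Igtp, at 58199556 to 58207591, and Irgm2, at 58199618 to 58222782, overlap on the plus strand of chromosome 11, and Irgm1 is on its minus strand at 48861968 to 48871683. Igtp and Irgm2 share 162 exon bases, 8.01% of those of Igtp and 4.39% of those of Irgm2. Gbp7 shares 637 exon bases with a processed pseudogene, Gm43802. These families hold near-identical copies, so their counts can be uncertain. In the last 500 transcript bases, where this 3′ assay reads, none of 411 stretches of 90 bases from any member occurred in transcripts of another gene.

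Values are listed from here on in one order of libraries: vehicle without light, vehicle with light, rolipram, BC11-38. The libraries held 5697, 6809, 7894 and 6143 cells with medians of 4585, 4324, 3443 and 4102 unique molecular identifiers (UMIs, counted transcripts) per cell. Of 26451 distinct cell barcodes, 92 occurred in more than 1 library. The doublet caller marked 0 to 0.228% of cells per library, so it has not worked and doublets were in effect not removed. Xist, expressed in female cells, was seen in 48.1%, 51.6% and 48.8% of the cells of the unbleached, rolipram and BC11-38 libraries and in 0.176% of bleached vehicle cells, so the bleached vehicle library is almost wholly male. Classes were named from marker genes, and levels are CPM, the UMIs of a gene per 1000000 UMIs of its class in that library, with 95% intervals for counting error only.

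Member levels in rods differed between the libraries, from 0 to 240.1 CPM when summed. As the members were chosen chiefly from rods, this range is a description only. Summed over the 6 genes, unbleached vehicle rods stood at 55.9 CPM (235 UMIs in 2376 rods), bleached vehicle rods at 240.1 (935 in 2504), rolipram rods at 2.92 (11 in 2639) and BC11-38 rods at 0 (0 in 2294, which allows up to 0.825). Bleached vehicle rods were the highest of the 4 and both drug libraries were below the unbleached one. Some transcript of a member was seen in 3.87% of unbleached vehicle rods (95% exact binomial interval 3.13 to 4.73), 12.7% of bleached vehicle rods (11.5 to 14.1), 0.379% of rolipram rods (0.182 to 0.696) and 0 of 2294 BC11-38 rods, which allows up to 0.131%.

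**Figure D1:**
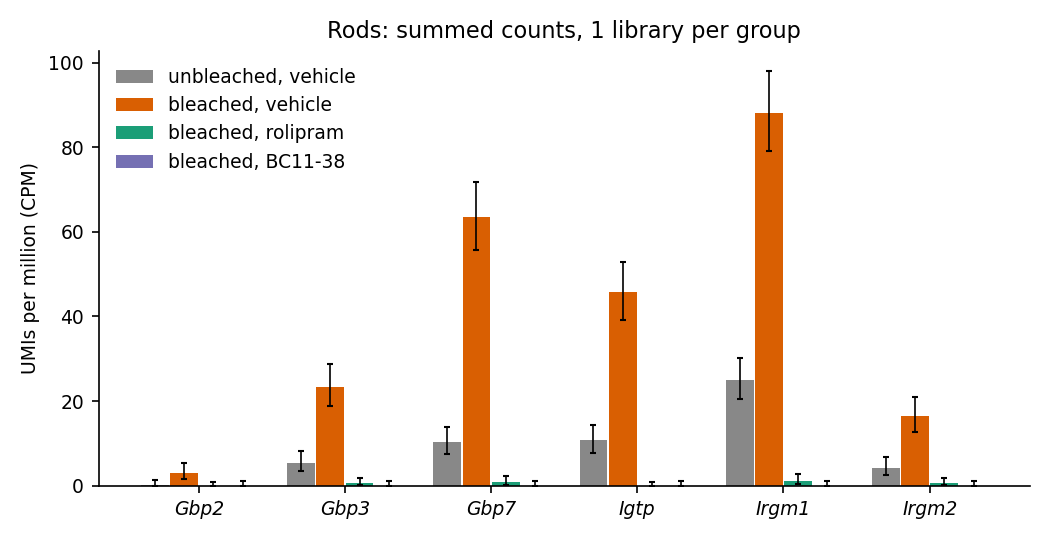
Level of each member in rods in CPM (bars, with exact Poisson 95% intervals, 1 library per group). Every member is highest in bleached vehicle rods, with Irgm1 at 88.1 CPM, and at or near 0 in the rolipram and BC11-38 libraries.

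Among the guanylate-binding proteins, Gbp7 had 43, 247, 3 and 0 UMIs in rods of the 4 libraries, or 10.2, 63.4, 0.796 and 0 CPM. Gbp3 had 23, 91, 2 and 0 UMIs, or 5.48, 23.4, 0.531 and 0 CPM. Gbp2, which is attached to membranes by a lipid anchor, was near the limit of the depth in rods, with 1, 12, 0 and 0 UMIs. All 3 were highest in the bleached vehicle library. The bleached over unbleached vehicle ratio was 6.20 for Gbp7 (4.47 to 8.78), 4.27 for Gbp3 (2.68 to 7.07) and 12.9 for Gbp2, whose interval of 1.92 to 553 reflects its single UMI.

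The regulators Irgm1, Igtp and Irgm2 followed the same order of libraries. Irgm1, which is also linked to autophagy, was the most abundant member in rods, with 105, 343, 4 and 0 UMIs, or 25.0, 88.1, 1.06 and 0 CPM. Igtp had 45, 178, 0 and 0 UMIs, or 10.7, 45.7, 0 and 0 CPM. Irgm2 had 18, 64, 2 and 0 UMIs, or 4.29, 16.4, 0.531 and 0 CPM. Bleached over unbleached vehicle ratios were 3.52 for Irgm1 (2.82 to 4.43), 4.27 for Igtp (3.06 to 6.06) and 3.83 for Irgm2 (2.24 to 6.88).

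In bleached against unbleached vehicle rods, 6 of 6 members were at least 2-fold higher, against 1.44% of the 8597 genes with 100 or more UMIs over both libraries. The members were chosen on this contrast, so nothing is read from that count. Of the members, 4 reached 100 UMIs over both libraries, and Gbp2 and Irgm2 did not.

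Against bleached vehicle rods, rolipram rods were 79.7-fold lower for Gbp7 (27.0 to 389), 44.0-fold for Gbp3 (11.8 to 369), 83.0-fold for Irgm1 (32.1 to 306) and 31.0-fold for Irgm2 (8.23 to 261). With 3 counts in place of 0, Igtp was at least 57.4-fold lower and Gbp2 at least 3.87-fold. BC11-38 rods had no UMI of any member, which puts Irgm1 at least 106.7-fold lower, Gbp7 76.8-fold, Igtp 55.4-fold, Gbp3 28.3-fold, Irgm2 19.9-fold and Gbp2 3.73-fold. Thus 6 of 6 members were at least 2-fold lower in each drug library. Of these, 3 reached 100 UMIs over both libraries in each contrast, the floor behind the share of all genes called lower, which was 3.0% of 8532 genes for rolipram and 4.72% of 8390 for BC11-38. These contrasts were also in view when the members were chosen.

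The drug libraries also lay below the unbleached library, a comparison with the same unbleached sample in both. In rolipram rods Irgm1 was 23.6-fold lower than in unbleached rods (8.93 to 88.1), Gbp7 12.9-fold (4.12 to 64.8), Gbp3 10.3-fold (2.55 to 90.3) and Irgm2 8.08-fold (1.93 to 71.8), and Igtp was at least 13.5-fold lower. In BC11-38 rods the lower bounds against unbleached rods ran from 5.19-fold for Irgm2 to 30.3-fold for Irgm1. Gbp2, with 1 UMI in unbleached rods, gives no fold here. That makes 5 of 6 members at least 2-fold lower in each drug library. Only Irgm1 reached the floor of 100 UMIs, above which 0.549% of genes were lower with rolipram and 1.62% with BC11-38.

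The sex of the mice moved with the comparison of the vehicle libraries. In the unbleached library, 587 rods with a Y-linked and no Xist transcript held 106 member UMIs, or 92.2 CPM (75.5 to 112), and 1025 rods with Xist and no Y-linked transcript held 17, or 9.68 CPM (5.64 to 15.5). Male unbleached rods were thus well above female ones, and their intervals do not meet. As each library pools 2 mice, sex and animal cannot be told apart. Male bleached vehicle rods stood at 253 CPM, 2.75-fold above male unbleached rods (2.23 to 3.42), a smaller ratio than the 4.29 over all rods (3.72 to 4.97). Among male rods 4 of 6 members were at least 2-fold higher, with Gbp7 at 4.37-fold, Gbp3 at 3.28-fold, Igtp at 2.61-fold and Irgm1 at 2.08-fold. The members were chosen on the bleached against unbleached contrast in rods. As no share of all genes was computed for male rods, nothing is read from that count. Irgm2 stood at 1.58-fold there (0.676 to 4.10). Gbp2 had 7 UMIs in male bleached and 0 in male unbleached rods, with an interval that starts at 0.827. Both intervals included 1, so neither member is shown to be higher in male rods. Rolipram rods held 1 member UMI in male and 3 in female cells, and BC11-38 rods none in either, so the low levels of the drug libraries were found in both sexes.

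**Figure D2:**
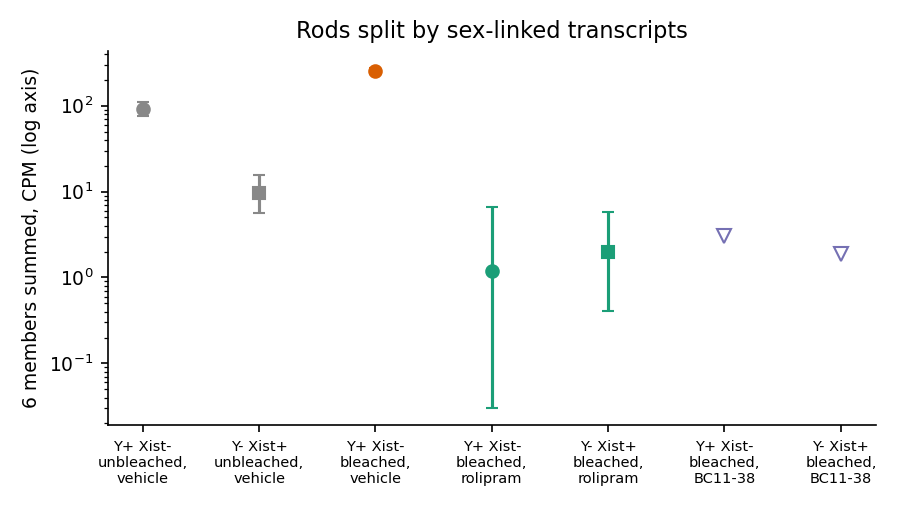
Summed level of the 6 members in rods split by sex-linked transcripts (log axis, CPM, exact Poisson 95% intervals). Circles are cells with a Y-linked and no Xist transcript, squares the reverse, and open triangles the limit that a count of 0 allows. Male unbleached rods, at 92.2 CPM, are above female ones, at 9.68.

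Within the rods, the members lay mostly in 1 cluster. Rods formed clusters 0, 1, 2, 3 and 6, and cluster 1 was led by interferon-induced genes, among them Irf7, Bst2, Parp9, Irgm1, Gbp7 and Oasl2. As Irgm1 and Gbp7 helped define it, their height there is no finding. Cluster 1 held 58 unbleached vehicle rods (2.44%), 243 bleached vehicle rods (9.70%), 1 rolipram rod and 0 BC11-38 rods. It carried 79.6% of the member UMIs of unbleached and 83.7% of those of bleached vehicle rods.

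Inside cluster 1 the vehicle libraries were closer to each other than over all rods. The cluster gathers rods of either library by interferon-induced genes, members among them, so this closeness is no finding. Irgm1 stood at 554 CPM unbleached and 562 bleached, Igtp at 269.7 and 323, Gbp3 at 149 and 174 and Irgm2 at 85.2 and 106. Gbp7 differed most of these, at 269.7 against 508 CPM, a ratio of 1.88 (1.33 to 2.73). Gbp2 had no UMI in unbleached cells of the cluster and 26.0 CPM in bleached ones. Summed, the cluster stood at 1327 CPM unbleached (1144 to 1531) and 1699 bleached (1582 to 1822), a ratio of 1.28 (1.09 to 1.51).

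Rods outside cluster 1 showed the same order at lower levels. They stood at 11.8 CPM unbleached, 44.3 bleached, 2.92 with rolipram and 0 with BC11-38, and the bleached over unbleached ratio was 3.74 (2.69 to 5.29). Here 5 of 6 members passed 2-fold after bleaching, and Gbp2, with 1 UMI unbleached and 0 bleached, was too low for a fold. Rods of cluster 0 had most of the member UMIs outside cluster 1 in the vehicle libraries, with 118 in 1308 bleached cells and 31 in 669 unbleached cells. Clusters also split the drug libraries, as clusters 2 and 3 held 43.8% and 32.9% of rolipram rods and 37.6% and 60.5% of BC11-38 rods, against 5.31% and 5.87% of bleached vehicle rods.

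**Figure D3:**
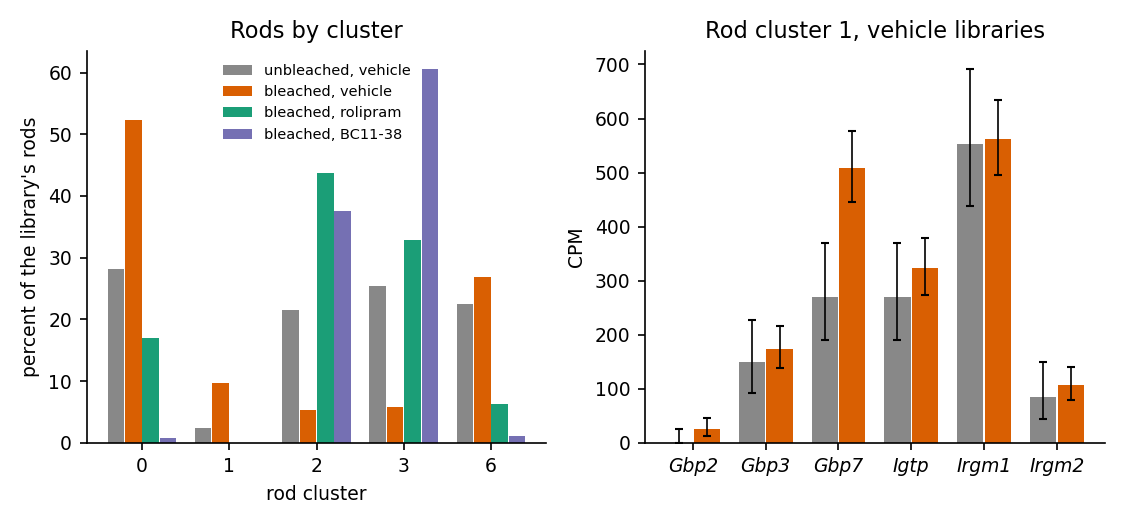
Left, percent of each library's rods in the 5 rod clusters. Right, level of each member in cluster 1 in the vehicle libraries (CPM, exact Poisson 95% intervals). Cluster 1 holds 9.70% of bleached and 2.44% of unbleached vehicle rods, and inside it Gbp7 differs most, at 508 against 269.7 CPM.

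The members were seen in few rods and often together. Of 2504 bleached vehicle rods, 212 had transcripts of 1 member, 60 of 2, 24 of 3, 17 of 4, 5 of 5 and 1 of all 6. In the unbleached library 70 rods had 1 member and 22 had 2 or more. The 5% of bleached vehicle rods with most member UMIs held 76.6% of them, and a single rod held up to 32. Of 82 bleached vehicle rods with Gbp7, 42 also had Irgm1, or 51.2% (39.9 to 62.4), against 6.81% of rods without Gbp7 (5.84 to 7.89). Of 116 rods with Igtp, 61 had Irgm1, or 52.6%, against 6.11% without. All 7 rods with Gbp2 also had Irgm1. Rods with Gbp7 were somewhat deeper, at a median of 1682.5 UMIs against 1342.5, and the part of depth in these shares was not tested.

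Depth and free RNA were measured beside the rod values. Median depth was 1489, 1349.5, 1214 and 1396.5 UMIs per rod, so it did not follow the member levels. With every rod thinned to 1000 UMIs, which left out 670 to 747 shallower rods per library, the share with a member was 2.75%, 10.7%, 0.211% and 0%. Cones, the photoreceptors with few members, had a member in 1.53%, 3.37%, 0.754% and 0.551% of cells at median depths of 7813, 6218, 4567 and 6155 UMIs, and in none when thinned alike. The 12 Müller glia markers summed to 294, 508, 298 and 306 CPM in rods and the 8 endothelial markers to 19.999, 37.2, 19.6 and 18.2 CPM, so both were also highest in the bleached vehicle library. At that share of the source cells' own RNA, RNA of Müller glia corresponds to 3.26 CPM and that of endothelial cells to 0.984 CPM of members in bleached vehicle rods, against 240.1 measured. In rolipram rods these shares were 1.27 and 0.668 CPM, against 2.92 measured. Microglia markers summed to 11.9 to 14.4 CPM in rods of the 4 libraries, with 9, 11, 9 and 6 of the 13 markers seen. The 3 markers of T and NK cells found in the table (Ccl5, Trac and Cd8a) had 0 or 1 UMI in rods of a library.

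Müller glia, the radial glia of the retina, held 50.2%, 56.6%, 60.3% and 41.5% of all member UMIs. Summed levels were 132 CPM in 586 unbleached vehicle cells, 131 in 1383 bleached vehicle cells, 157 in 1190 rolipram cells and 70.2 in 595 BC11-38 cells. Over all cells, bleached and unbleached vehicle Müller glia lay together, and the BC11-38 library was lowest. Male cells alone are given below. Gbp7 led in Müller glia, where Irgm1 led in rods.

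**Figure D4:**
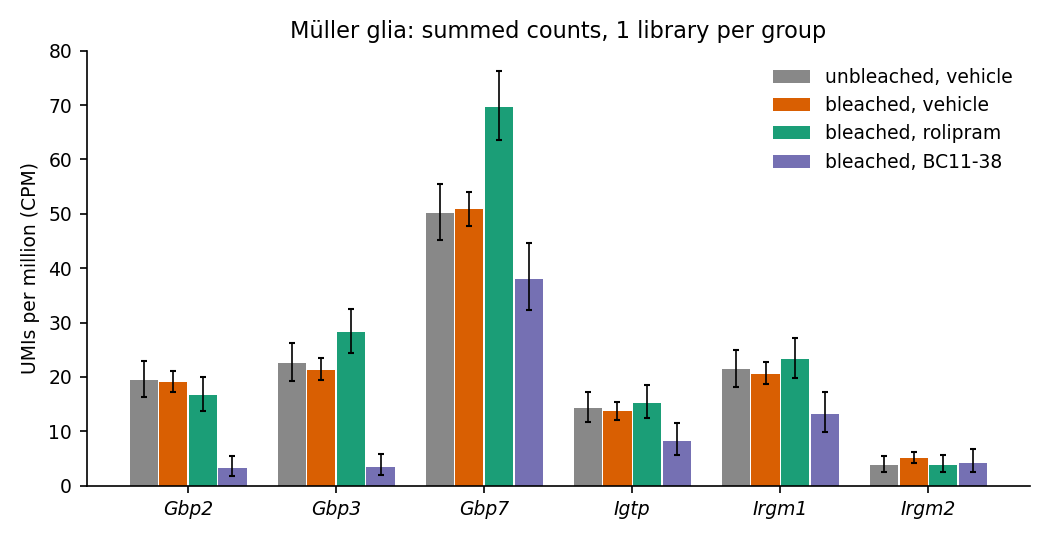
Level of each member in Müller glia (bars, CPM, exact Poisson 95% intervals, 1 library per group). The vehicle libraries overlap for all 6 members, Gbp3 and Gbp7 stand above the others with rolipram, and Gbp2 and Gbp3 are lowest with BC11-38.

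Among Müller glia Gbp7 stood at 50.1, 50.8, 69.7 and 38.1 CPM. Gbp3 stood at 22.5, 21.3, 28.2 and 3.46 CPM, and Gbp2 at 19.4, 19.0, 16.7 and 3.22. Both guanylate-binding genes thus had a low BC11-38 value that Gbp7 did not share to that degree. The regulator Irgm1 stood at 21.4, 20.6, 23.3 and 13.1 CPM, Igtp at 14.3, 13.7, 15.3 and 8.16, and Irgm2 at 3.77, 5.12, 3.89 and 4.20.

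Between bleached and unbleached vehicle Müller glia, 0 of 6 members were 2-fold higher, against 2.62% of 11139 genes, and all 6 intervals included 1. The ratios ran from 0.948 for Gbp3 (0.791 to 1.14) to 1.36 for Irgm2 (0.887 to 2.14). Between rolipram and bleached vehicle, 0 of 6 were 2-fold lower, against 6.3% of 11246 genes. Gbp3 was 1.32-fold higher with rolipram (1.11 to 1.57) and Gbp7 1.37-fold (1.23 to 1.53). With scaling by a trimmed mean of ratios these were 1.13 and 1.17, and Igtp and Irgm1 went from 1.11 and 1.13 to 0.953 and 0.971. Between BC11-38 and bleached vehicle, 2 of 6 were at least 2-fold lower, against 9.46% of 11010 genes. These were Gbp2, 5.91-fold lower (3.42 to 11.2), and Gbp3, 6.16-fold (3.63 to 11.4). Igtp was 1.68-fold lower (1.17 to 2.49), Irgm1 1.57-fold (1.18 to 2.13) and Gbp7 1.34-fold (1.13 to 1.59). Both contrasts use the same bleached vehicle sample.

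Müller glia of the libraries came mostly from different clusters, which move with these values. Cluster 11 held 285, 1005, 209 and 0 cells, cluster 12 held 91, 312, 79 and 29, and cluster 13 held 210, 66, 902 and 566. Cluster 12 summed to 68.5, 56.6, 21.7 and 150.4 CPM from 18, 78, 3 and 8 UMIs, so BC11-38 stood 2.66-fold above bleached vehicle there (1.11 to 5.50), against the direction in the class. In cluster 13, which held most Müller glia of both drug libraries, the members summed to 105, 117, 83.3 and 69.2 CPM. Gbp2 there stood at 9.65, 27.7, 6.26 and 3.26 CPM, so its ratio to bleached vehicle was 0.117 with BC11-38 (0.0514 to 0.265) and 0.225 with rolipram (0.118 to 0.449), and bleached stood 2.88-fold above unbleached vehicle (1.36 to 5.97). Gbp3 there stood at 16.2, 7.40, 12.3 and 3.26 CPM and Gbp7 at 52.3, 44.4, 42.0 and 37.8.

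Cluster 11 held the high rolipram values. In it Gbp7 stood at 51.3, 53.5 and 149 CPM in unbleached vehicle, bleached vehicle and rolipram cells, Gbp3 at 25.3, 22.3 and 72.4, and Gbp2 at 23.3, 19.2 and 44.9. The rolipram library was highest for all 3. Its 209 cells, 17.6% of the rolipram Müller glia, carried 61.9% of that class's member UMIs. The top 5% of Müller glia held 32.4%, 45.2%, 54.1% and 32.4% of the member UMIs. Single cells held up to 94, 174, 35 and 6 UMIs, so no BC11-38 cell held many. Low counts alone also raise such a top share, and the share to be had from sampling was not computed. Male and female Müller glia stood at 113 and 133 CPM in the unbleached library, 203 and 125 with rolipram, and 69.1 and 71.7 with BC11-38. Male bleached vehicle Müller glia stood at 129 CPM, 1.14-fold above male unbleached ones (1.03 to 1.27). Among these male cells Gbp7 was 1.22-fold higher after bleaching (1.02 to 1.45) and Irgm2 2.50-fold (1.22 to 5.97). The intervals of the other members included 1. Depth also differed, at medians of 11517.5, 13694, 5545.5 and 6759 UMIs. Thinned to 1000 UMIs the shares of Müller glia with a member were 9.90%, 9.48%, 10.1% and 8.23% (unthinned 60.8%, 57.6%, 36.6% and 31.4%). Thinned to 500 UMIs, which kept every cell, they were 6.83%, 5.06%, 6.89% and 2.86%. The BC11-38 share was lowest there (1.67 to 4.54), against 4.92 to 9.18 unbleached, 3.97 to 6.35 bleached and 5.52 to 8.48 with rolipram.

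Endothelial cells had the highest level of any class with 50 or more cells per library. The 52, 92, 96 and 70 cells summed to 444, 362, 468 and 353 CPM, and 84.8% to 89.6% of them held a member. Gbp7 led at 159.7, 126, 187 and 139.5 CPM, and Gbp3 followed at 107, 73.2, 101 and 92.2. No member differed 2-fold between any of these libraries in the comparisons above, against 0.754% of genes higher and 0.553% lower after bleaching, 1.15% higher and 1.2% lower with rolipram, and 2.84% higher and 2.55% lower with BC11-38. The smaller differences that lay outside counting error were Gbp3 at 0.685-fold (0.512 to 0.916) and Gbp7 at 0.789-fold (0.629 to 0.992) in bleached over unbleached vehicle, Gbp3 at 1.38-fold and Gbp7 at 1.49-fold in rolipram over bleached vehicle, and Gbp2 at 0.631-fold (0.398 to 0.978) in BC11-38 over bleached vehicle.

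**Figure D5:**
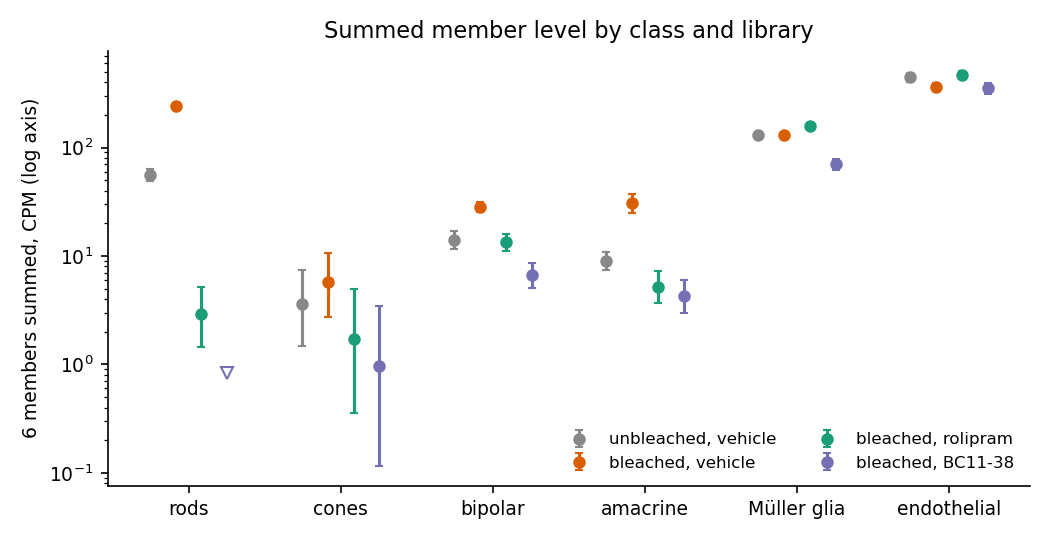
Summed level of the 6 members by class and library (log axis, CPM, exact Poisson 95% intervals). The open triangle is the limit that 0 counts allow in BC11-38 rods. Endothelial cells lie at 353 to 468 CPM in every library, and rods range from 0 to 240.1 CPM.

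Bipolar cells, amacrine cells and cones had low levels, highest in the bleached vehicle library and lowest with BC11-38. In cones this order is uncertain, as bleached over unbleached vehicle was 1.58 (0.542 to 4.89). The intervals of rolipram and BC11-38 overlapped in cones (0.352 to 4.99 and 0.116 to 3.45 CPM). They also overlapped in amacrine cells (3.65 to 7.21 and 2.95 to 6.02 CPM). Bipolar cells summed to 14.1, 28.2, 13.3 and 6.68 CPM. In bleached over unbleached vehicle bipolar cells, 3 of 6 members were at least 2-fold higher: Gbp3 at 2.92-fold (1.08 to 9.87), Irgm2 at 2.74-fold (1.24 to 6.86) and Gbp7 at 2.21-fold (1.52 to 3.28). Only 2 members reached 100 UMIs there, of which 1, Gbp7, passed 2-fold, against 0.94% of genes above that floor. Against bleached vehicle, 4 of 6 were at least 2-fold lower with rolipram and 5 of 6 with BC11-38. On the floor of 100 UMIs these counts were 0 of 1 with rolipram, against 1.28% of genes, and 1 of 1 with BC11-38, against 1.82%. Gbp7 was the leading member there, at 4.91, 10.8, 7.47 and 3.56 CPM. Clusters differed within the class: the rod bipolar cells of cluster 5 held a member in 2.05%, 7.96%, 1.17% and 0.858% of cells, and the bipolar cells of cluster 24 in 28.3%, 30.9%, 22.2% and 20.5%.

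Amacrine cells summed to 9.001, 30.5, 5.21 and 4.29 CPM. Here 4 of 6 members were at least 2-fold higher in bleached over unbleached vehicle, and 5 of 6 at least 2-fold lower with each drug than in bleached vehicle. No member reached 100 UMIs in any of these contrasts, so the shares of genes called above that floor (1.2% higher after bleaching, 0.91% lower with rolipram and 1.14% lower with BC11-38) have no member in them. Igtp went from 12 to 29 UMIs, 8.04-fold in CPM (3.98 to 17.3), and Irgm2 from 2 to 18 UMIs, 29.9-fold (7.17 to 266). Cluster 10 held 24 of those 29 Igtp UMIs, 16 of the 18 Irgm2 UMIs and 64 of all 106 member UMIs. It had 120 of the 499 bleached vehicle amacrine cells, and 17 of these 120 (14.2%) held a member. The Igtp and Irgm2 ratios thus rest largely on few cells. It held 5.42% of unbleached and 24.0% of bleached vehicle amacrine cells. Outside cluster 10 the members summed to 9.07, 16.1, 5.62 and 4.16 CPM, and bleached stood 1.77-fold above unbleached vehicle (1.20 to 2.56). There Gbp7 was 2.48-fold higher (1.10 to 5.32), and Igtp, at 1.72-fold (0.475 to 5.25), no longer passed 2-fold. Irgm2 had 2 UMIs in each vehicle library outside the cluster. Cones summed to 3.64, 5.74, 1.71 and 0.956 CPM from 7, 10, 3 and 2 UMIs, with no UMI of Gbp2 or Gbp3 in any library. Irgm1 was the only member of cones above 3 UMIs in a library, with 1, 7, 2 and 1, and its BC11-38 over bleached vehicle ratio of 0.119 had an interval below 1 (0.00264 to 0.926).

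Classes with fewer than 50 cells in a library give levels only. Microglia, the resident immune cells, summed to 44.2 CPM in 14 unbleached cells, 69.0 in 38 bleached vehicle cells and 59.9 in 32 rolipram cells, with intervals that overlap, and the BC11-38 library had none. Astrocytes summed to 393, 203, 117 and 76.7 CPM in 9, 23, 21 and 7 cells, the highest in the unbleached library. Horizontal cells summed to 20.7, 24.1, 27.3 and 12.1 CPM. Over whole libraries, all classes together, the members summed to 54.8, 105, 57.5 and 23.6 CPM, and rods held 12.1%, 20.1%, 0.608% and 0% of their UMIs.

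Of the other family genes in rods, the effector Iigp1 had 2, 37, 1 and 0 UMIs in the 4 libraries, Gm12185 had 9, 23, 0 and 0, Ifi47 had 10, 11, 0 and 0 and Tgtp1 had 9, 10, 0 and 0. Iigp1 and Gm12185 had most UMIs in bleached vehicle rods, and Ifi47 and Tgtp1 had like counts in both vehicle libraries. Irgq had 111, 108, 89 and 93 UMIs. In Müller glia Iigp1 stood at 3.64, 6.22, 1.30 and 0 CPM, highest with bleached vehicle and more than 2-fold lower with each drug. There Gbp2b stood at 25.5, 32.8, 28.9 and 9.89 CPM, Gbp6 at 17.3, 13.7, 33.7 and 12.6 and Gbp5 at 7.28, 7.11, 11.8 and 3.71. Endothelial cells had Iigp1 at 87.7, 97.8, 137 and 77.2 CPM and Gbp5 at 73.1, 54.3, 71.1 and 57.3, and both were below 10 CPM in rods of every library. Of the 26 genes searched, 15 were in the table, and the others are not analysed here.

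The pathway that leads to the members was followed with 5 lists. They were chosen with earlier results of these data known. Their counts are thus a description, and nothing is read from them against the shares of all genes. Of 10 interferons and related ligands, 2 were found, Il18 and Il27. In rods Il18, a cytokine that acts with others to raise interferon gamma, had 9, 7, 7 and 92 UMIs, so it was highest with BC11-38, where the members were at 0. It stood at 14.0, 13.2, 15.9 and 53.5 CPM in cones and 33.8, 25.7, 38.2 and 52.4 in Müller glia. Il27 had no UMI in rods, 24, 234, 18 and 0 UMIs in bipolar cells and 3, 46, 1 and 0 in cones, highest with bleached vehicle in both. Of the 9 receptors and kinases, 4 were counted and 0 were 2-fold different in any of the 3 rod comparisons. Their median log2 ratio in bleached over unbleached vehicle was 0.19, against 0.09 over all genes counted. Ifngr1, a chain of the interferon gamma receptor, stood at 36.0, 42.9, 47.2 and 47.3 CPM in rods, and Ifnar1, a chain of the type I receptor, at 33.1, 35.9, 25.5 and 28.9.

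Of 13 transcription factors, 9 were counted and 5 were called higher after bleaching (Stat2, Irf1, Irf7, Irf8 and Irf9), against 1.44% of all genes counted, with a median log2 ratio of 1.00. Irf1, which binds the response element, stood at 15.5, 50.6, 1.59 and 0 CPM in rods, and Irf7, an amplifier of the interferon response, at 53.3, 156, 11.7 and 11.01. Both were highest in bleached vehicle rods and lowest in the drug libraries. With rolipram 7 of the 9 were at least 2-fold lower than in bleached vehicle, against 3.0% of all genes, with a median log2 ratio of -2.61 against -0.10 over all genes, and with BC11-38 also 7 of 9, against 4.72%, with -3.27 against -0.16.

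Of 7 inhibitors of the pathway, 5 were counted in rods, and Socs1, Socs3 and Usp18 were at least 2-fold higher after bleaching and lower with each drug, against the same shares of all genes. Usp18, which blocks the type I receptor, stood at 9.76, 33.9, 0 and 0 CPM. Of the 14 partners that load the GTPases onto membranes, such as the ATG8 proteins and their ligases, 11 were counted and 0 were higher after bleaching, with a median log2 ratio of 0.04. With BC11-38 1 of the 11 was lower, Map1lc3a, at 168.7 CPM in bleached vehicle and 77.3 in BC11-38 rods. In Müller glia no gene of the transcription factor or inhibitor lists was 2-fold different after bleaching. With BC11-38 3 of 8 counted factors (Stat3, Irf7 and Irf9) and 2 of 6 inhibitors (Usp18 and Isg15) were lower, against 9.46% of all genes.

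Genes whose levels followed the members most closely were sought over 24 sums, 6 classes in 4 libraries, by Pearson's r of log2(CPM + 1) with the members' mean. The 10 highest were Psmb9 (0.981), Parp14 (0.979), Irf1 (0.979), Rnf213 (0.978), Psmb8 (0.966), Eif2ak2 (0.965), Oasl2 (0.964), Ifih1 (0.963), Ddx58 (0.954) and Dtx3l (0.9505). The sums of a library share its preparation and depth, so r is given as a description. Psmb9, a subunit of the immunoproteasome, stood at 9.29, 19.5, 0 and 0 CPM in rods and 45.0, 55.0, 58.1 and 39.9 in endothelial cells. Between pairs of members r ran from 0.814 for Igtp with Gbp2 to 0.956 for Gbp3 with Gbp2.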

How the data were processed

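Retinae were dissociated with papain and sequenced with 10x v3 reagents, per the labels' protocols. The submitters' processing notes name mm10, Seurat 3.2.2 and Cell Ranger 6.0.1, with no roles. How reads shared by gene copies were treated is not stated there. The deposited values are a natural log of 1 plus UMIs per 10000 of the cell, filtered by the authors, per the file headers and the values. The design assumed counts, so UMIs were computed back (140410160 in all), and 100% came out whole to a tolerance of 0.001. A further group in the series text was not analysed here.

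Cells were clustered with scanpy 1.11.5 (2000 variable genes, 30 components, 15 neighbours, Leiden resolution 1, 34 clusters). Clusters took the class with most of its markers detected (in 15% of cells and 2-fold over the median cluster). Doublets called by scrublet were left out, 0 to 18 per library against 4.56% to 6.32% expected. Counts were summed per class and library, and a gene was counted at 100 UMIs over both libraries and called at 2-fold. With 1 library per group there was no test. Intervals are exact 95% Poisson, conditional binomial or Clopper-Pearson intervals and cover counting error only. A 0 was set to 3 counts for bounds. Members, lists and the rule for named genes (the members, every family and pathway gene listed, the 10 genes most alike) were chosen with earlier results of these data known. The ratio calls were tested on simulated data with counting error only. Those data held no spread between libraries or animals, so that run cannot say how far the calls would hold in other libraries. The values of 1 listed gene are not reported here.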

Additional observations from a re-analysis of the deposited data

Results flagged for a closer look

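In 6 cases a member moved one way in rods and the other way in another class under the same contrast, with counting intervals on opposite sides of 1. With 1 library per group the difference itself was not tested. In rolipram over bleached vehicle, Gbp3 stood at 0.0227 in rods, 1.32 in Müller glia and 1.38 in endothelial cells. Gbp7 in that contrast stood at 0.0125 in rods, 1.37 in Müller glia and 1.49 in endothelial cells. Both Müller ratios came closer to 1 with trimmed-mean scaling, as given above. In Müller cluster 13 they were 1.66 for Gbp3 (0.618 to 6.30) and 0.946 for Gbp7 (0.618 to 1.51). In cluster 11 they were 3.24 (2.65 to 3.95) and 2.79 (2.43 to 3.19). In bleached over unbleached vehicle, Gbp3 stood at 4.27 in rods and 0.685 in endothelial cells, and Gbp7 at 6.20 in rods and 0.789 in endothelial cells.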

How the results depend on the processing

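No paired analysis was possible because each group has 1 library. Counts of members past 2-fold in rods stayed between 4 and 6 of 6 under every alternative run. Over rods and Müller glia, 57 of 61 values were judged the same. These values were counts, judged by a limit of 1.5 times, and 1 percentage judged by its binomial interval. That percentage was the share of bleached vehicle rods with Gbp7 that also had Irgm1. Other values moved more often. Of the member ratios, 226 stayed inside the interval of the main ratio and 55 moved out of it. With cells that had a Y-linked and no Xist transcript, 21 moved out and 14 stayed. Judged by their intervals, shares of rods moved in 10 cases and stayed in 18. Summed CPM moved in 15 and stayed in 109. In Müller glia the count higher after bleaching went from 0 to 1 (Irgm2) with cells that had a Y-linked and no Xist transcript. In cluster 13 alone it went to 1 (Gbp2). The count lower with rolipram went from 0 to 1 (Gbp2) in cluster 13 alone. The count lower with BC11-38 went from 2 to 4 at a threshold of 1.5-fold. The choice of cluster 13, and leaving out rod clusters 2 and 6 or amacrine cluster 10, were added after seeing the data. No member ratio past 2-fold changed direction under the alternatives run, some ratios near 1 in Müller glia did, and Gbp2 gave no ratio to bleached vehicle in rolipram rods of Y-linked cells.

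The share of unbleached vehicle rods with a member was 2.75% at 1000 UMIs, 1.64% at 500, 1.52% with 2 or more UMIs and 6.13% in Y-linked cells. For bleached vehicle rods it was 10.7%, 6.71% and 6.07% under the first 3 of these, and for rolipram rods 0.114% at 500 UMIs, 0.0379% with 2 or more UMIs and 0.168% in Y-linked cells. With each cell weighing the same, summed CPM was 43.5 in unbleached and 208.6 in bleached vehicle rods, 10.6 in unbleached cones, 10.3 in rolipram bipolar cells, and 120.4 in unbleached and 140.8 in rolipram Müller glia. In Y-linked cells it was 92.2 in unbleached and 1.18 in rolipram rods, 10.5 in rolipram amacrine cells, and 113 in unbleached and 203 in rolipram Müller glia. Without the interferon-led cluster it was 11.8 in unbleached and 44.3 in bleached vehicle rods. Without cluster 10 it was 16.1 in bleached vehicle amacrine cells. With the highest doublet scores left out it was 565 in rolipram endothelial cells. The cause of these changes was not tested. Counting shallow unnamed clusters as rods was not run, since every cluster had a name. Depth limits Gbp2 in rods and all members in cones.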
